A study of Mus musculus with 6 samples.

Results

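The 32 genes described here encode the sensors, chaperones, folding enzymes, degradation factors and translocon subunits that act in or on the unfolded protein response of the endoplasmic reticulum (ER). They were taken from a list of gene symbols whose rule uses no measured value, although the list was drawn up with earlier results of these data known. Each symbol was matched to 1 Ensembl identifier of the GENCODE M21 annotation (mouse build GRCm38). All 32 were found among the 55487 genes of the count table, and all 32 passed the filter on low counts, which left 16957 genes for testing. The study sequenced ribosome-depleted total RNA of flash-frozen mouse ovaries from 3 wildtype and 3 GalTKO (genotype label GalT-/-) samples. GalTKO lacks Galt, galactose-1-phosphate uridylyltransferase, an enzyme that breaks down galactose. Both groups carried the same strain label, cbl/6-ola/129, were fed 2.5% galactose from weaning on, for 4 weeks, and were sampled at postnatal day 49. No group without the diet was analysed here, so every difference below is one of genotype on galactose. The labels name no promoter or cell type for the mutant allele and do not say whether each library came from a separate animal. If they did not, the p-values measure only the spread between these samples, which may be technical.

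Secreted and membrane proteins fold in the ER with the help of chaperones and of enzymes that form disulfide bonds. When unfolded protein builds up, the membrane sensors IRE1, ATF6 and PERK signal to the nucleus and to the ribosome, and the transcription factors XBP1 and ATF6 raise the output of folding and disposal genes. Cells of the ovary use this machinery to make hormones, receptors, the zona pellucida and extracellular matrix.

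Libraries held between 19232486 and 25729564 counted reads. Galt, on chromosome 4 from 41755228 to 41758695, had 445, 380 and 402 counts in the wildtype libraries and 4, 6 and 0 in the GalTKO libraries, so the genotype labels held in all 6. This gave a log2 fold change of -6.82 ± 0.41 (SE, 3 libraries each, adjusted p = 0.000153, edgeR quasi-likelihood test with Benjamini-Hochberg adjustment). Mitochondrially encoded genes took 1.37% to 1.97% of wildtype counts and 2.22% to 3.53% of GalTKO counts. Levels were summed over 13 lists of cell type and handling markers. Sums of the corpus luteum, macrophage and endothelial lists were lower in all 3 GalTKO libraries than in every wildtype library. Those of the fat and pancreas list and the handling list, which is dominated by mitochondrial RNA, were higher. Members of the luteal list did not all follow its sum. Log2 fold changes were 0.53 for Akr1c18 and -0.03 for Ptgfr, and ran from -1.41 (Lhcgr) to -0.60 (Hsd3b1) for the rest. The edgeR test called 1 of 8 luteal, 6 of 10 macrophage and 2 of 7 endothelial genes lower. It also called Plin1, of the fat and pancreas list, higher. Over all 16957 genes tested, 242 were called lower and 191 higher. The other 8 lists overlapped between genotypes in their sums. Some of them still held calls: Amh (granulosa) and Krt8 (surface epithelium) higher, and Nr5a2 (granulosa) and Rgs5 (smooth muscle) lower. In whole ovary RNA, fewer cells of a type and less RNA per cell cannot be told apart, and the part of these lists in the values below was not tested.

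No gene of the 32 passed the genotype test. The edgeR quasi-likelihood test called 0 of 32 at an adjusted p under 0.05, beside 2.55% of all genes tested (433 of 16957). DESeq2 also called 0 of 32, beside 6.19% of all genes, and limma voom called 0 of 32, beside 3.29%. At an unadjusted p under 0.05, edgeR singled out 4 of the 32, all with higher levels in GalTKO: Dnajb11, Txndc5, Creld2 and Sec61b. The same cutoff took 17.1% of all genes in either direction and 8.19% in the higher direction, so 4 of 32 is near the background. The smallest adjusted p was 0.178, for Sec61b (edgeR, Benjamini-Hochberg). Levels did not overlap between genotypes for 5 genes with GalTKO higher (Atf6, Hsp90b1, Dnajb11, Creld2 and Sec61b), beside 11.8% of all genes, and for 1 with GalTKO lower (Derl2), beside 12.0%.

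The log2 fold changes of GalTKO over wildtype were positive for 20 genes and negative for 12, beside 9061 positive and 7896 negative over all genes tested. Those of the 32 genes ran from -0.14 for Herpud1 to 0.53 for Creld2 with a median of 0.08. Over all genes tested the median was 0.02 with quartiles of -0.14 and 0.20. Standard errors ran from 0.07 to 0.48 with a median of 0.13. The 95% interval of the fold change lay within 1.5-fold in both directions for 24 of the 32 genes and within 2-fold for 31. Pdia4 was the exception, with an interval from 0.517 to 2.61 times the wildtype level. The interval included no difference for 28 of the 32.

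**Figure D1:**
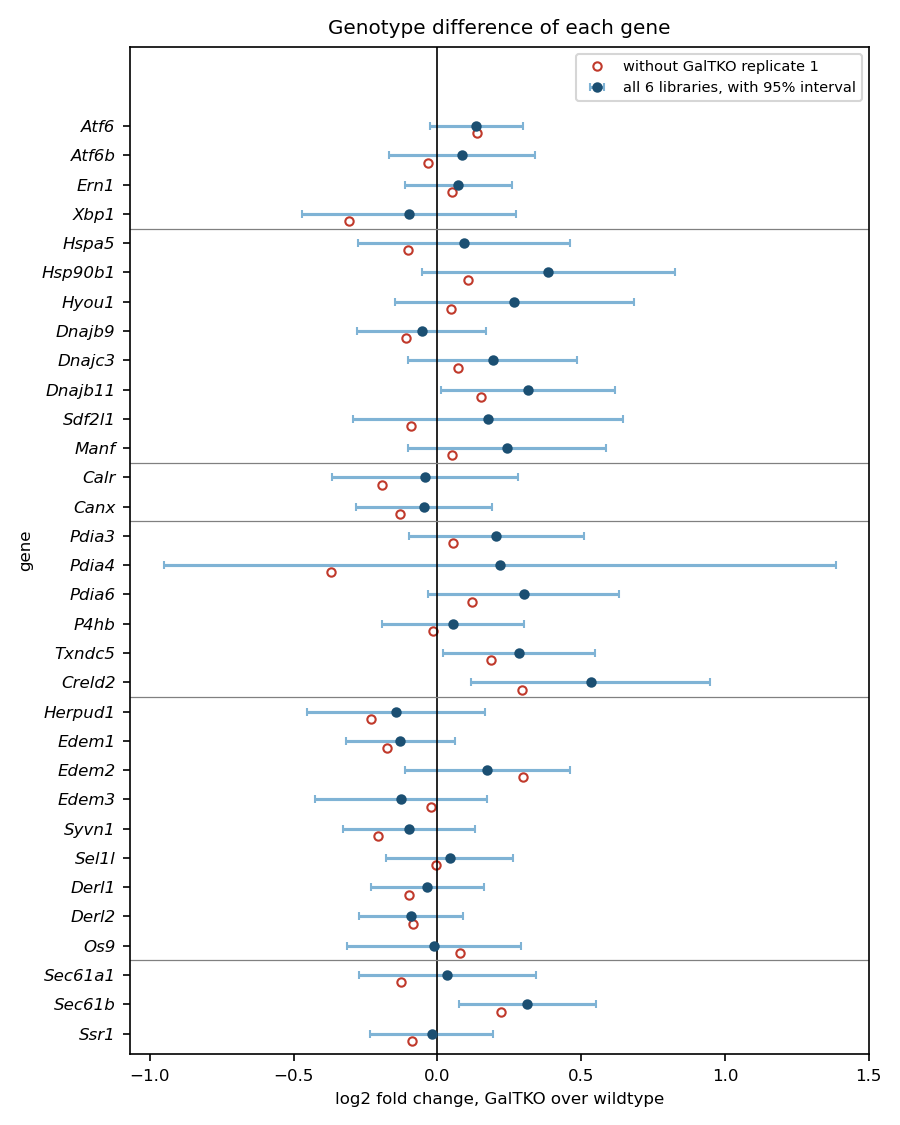
Each row is 1 gene, grouped by role in the order of the text, and the horizontal axis is the log2 fold change of GalTKO over wildtype (0 is no difference). Filled points use all 6 libraries and carry 95% intervals, 28 of 32 of which include 0; open points leave out GalTKO replicate 1 and lie lower for 27 of 32 genes.

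One library stood apart for these genes. GalTKO replicate 1 held the highest level of the 6 libraries for 25 of the 32 genes (78.1%), and for 17.4% of all genes tested. It exceeded the next highest library by more than 1.2 times for 11 of them. Summed over the 32 genes, levels in CPM (reads of a gene relative to all counted reads, on library sizes scaled by edgeR's TMM method) were 10927, 9965 and 10157 in wildtype replicates 1, 2 and 3. In GalTKO replicates 1, 2 and 3 they were 13675, 9959 and 10070.5. Replicates 2 and 3 of GalTKO thus lay at the level of the wildtype libraries, and replicate 1 stood above all 5. Group means were 10350 ± 509 in wildtype and 11235 ± 2114 in GalTKO (SD, n = 3 each).

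The height of that library differed by role. The log2 ratio of GalTKO replicate 1 to the mean of GalTKO replicates 2 and 3 had a median of 0.51 over the 8 Hsp70 and Hsp90 chaperones and cofactors, 0.45 over the 6 disulfide isomerases and Creld2, and 0.32 over the 2 lectin chaperones. It was 0.25 over the 3 translocon genes, 0.20 over the 4 sensors and transcription factors, and 0.13 over the 9 degradation genes. Over all genes tested its median was -0.02, its quartiles were -0.23 and 0.14, and its 5th and 95th percentiles were -0.84 and 0.60. As 1 library has no replicate of its own, no test was made of these ratios. In wildtype, replicate 1 over the mean of replicates 2 and 3 gave a median of 0.07 for the 32 genes and of -0.005 for all genes tested. Replicate 1 was the highest library of its genotype in both genotypes for 20 of the 32 genes, beside 11.4% of all genes.

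**Figure D2:**
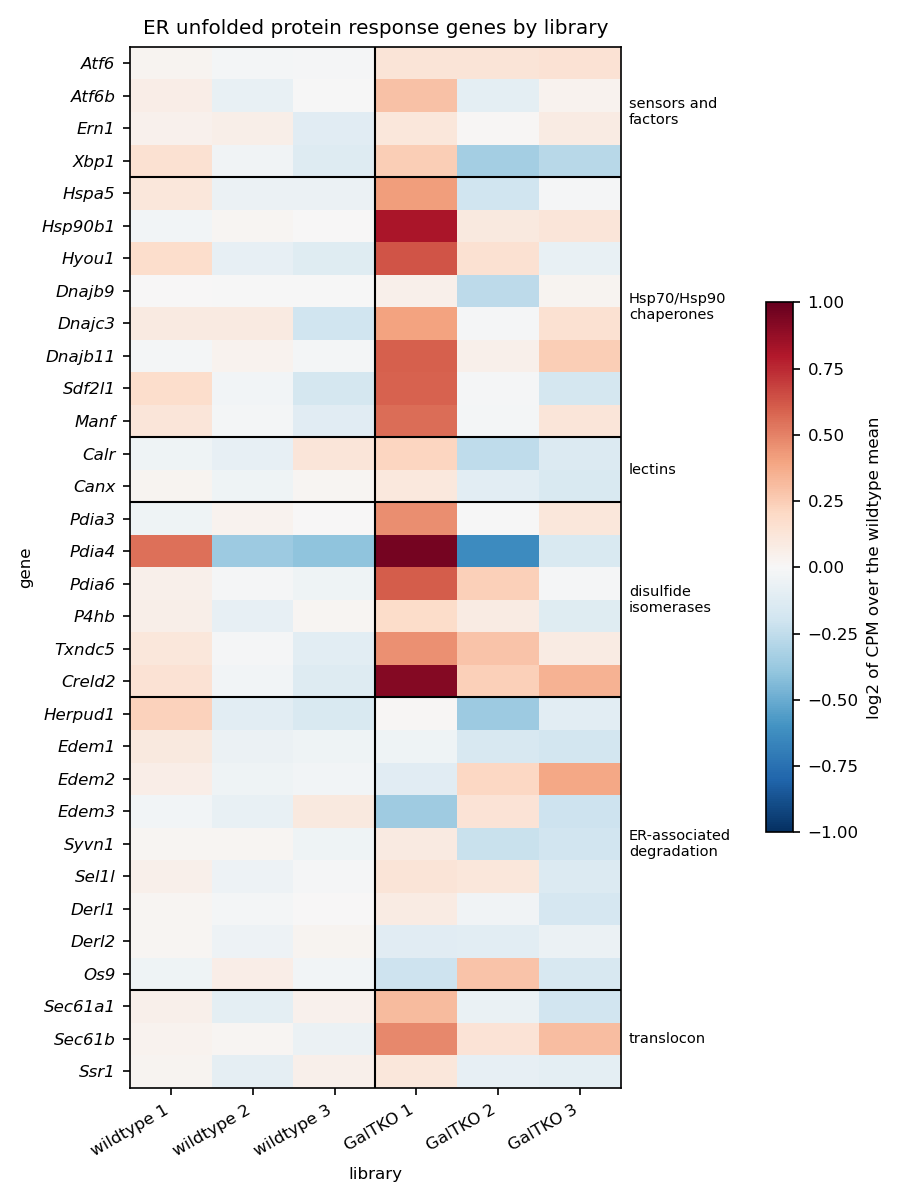
Rows are the 32 genes by role, columns are the 6 libraries, and colour gives the log2 of each library's CPM over the wildtype mean of that gene (red above, blue below). The column of GalTKO replicate 1 is the reddest for chaperones and disulfide isomerases, with a median over the 32 genes of 0.23 against -0.01 and -0.06 in GalTKO replicates 2 and 3.

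The spread measured among GalTKO libraries was wider with that library than without it. The median coefficient of variation of the 32 genes was 5.0% among wildtype libraries and 15.9% among GalTKO libraries, and 7.18% among GalTKO replicates 2 and 3 alone. Over all genes tested these medians were 10.03%, 14.2% and 12.6%. A median from 2 libraries tends to lie lower than one from 3 at equal spread, so the last value of each set is not strictly comparable. Without GalTKO replicate 1, edgeR called 0 of the 32 genes, beside 1.51% of all genes, and 4 had an unadjusted p under 0.05, beside 15.0% of all genes, which is near the background again. Those were Xbp1 and Syvn1 with lower levels in GalTKO and Creld2 and Edem2 with higher ones. The median log2 fold change of the 32 genes was then -0.02 rather than 0.08, with 14 positive and 18 negative, and 8 genes changed sign.

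In the marker lists, the sum of GalTKO replicate 1 lay within the range of the other 5 libraries for 11 of the 13 lists. Single genes could differ from these sums. Of the theca list, Cyp17a1 had 399.7 CPM in replicate 1 against 7.29 to 296 in the others, and Insl3 had 5.88 against 1.08 to 2.73. Ptch1 was also highest there, and Aldh1a1, the largest part of the sum, was not. Of the granulosa list, Fshr, Amh and Inhba were highest in replicate 1 and the rest were not. The endothelial list of replicate 1 was the lowest, at a summed 412 CPM against 432 to 650 in the others. Its fat and pancreas list was the highest, at 60.7 CPM against 32.9 to 52.5, through Plin1, a lipid droplet coat protein, at 53.1 CPM. Of the other genes of that list, the pancreatic enzymes Cpa1 (3.94 to 6.19 CPM) and Cela1 (2.52 to 9.01 CPM) and the fat gene Fabp4 (0.813 to 1.42 CPM) were detected in all 6 libraries. Prss2 had no counts in any, and Adipoq and Cidec were at or under 0.0866 CPM. The list for plasma cells, which carry much ER, summed to 345 to 402 CPM in wildtype and 387 to 407 CPM in GalTKO, with 399.9 CPM in replicate 1, and 0 of its 8 tested genes were called. Most of that sum was Sdc1, at 301 to 345 CPM, and Derl3, described below, is also on the list. Its defining genes were low, with Jchain at 0.208 to 0.8 CPM and Mzb1 at 0.0846 to 0.32 CPM in wildtype and 0 in GalTKO. The macrophage list summed to 447 to 532 CPM in wildtype and 279 to 313 CPM in GalTKO, with 306 CPM in replicate 1. The luteal list summed to 15702 to 21993 CPM in wildtype and 9301 to 14990.2 CPM in GalTKO, with 9543 CPM in replicate 1. Mitochondrial counts took 2.26% of this library, close to the 2.22% of GalTKO replicate 2. What sets replicate 1 apart was not tested beyond these values.

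Promoters of several of these genes hold the ER stress response element, which is bound by ATF6 and XBP1 together with the CCAAT factor NF-Y. It was searched as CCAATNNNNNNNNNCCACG on both strands, in RefSeq's promoter table (GRCm38.p6, 250 bases before to 50 after each start), where 27 of the 32 genes had an entry. Atf6, Hyou1, Manf, Derl1 and Sec61a1 had none. The element was present in 8 of the 27 (29.6%): Hspa5, Hsp90b1, Calr, Canx, Pdia6, Dnajc3, Creld2 and Syvn1. It was present in 0.137% of all 27025 genes of the table. The second form of the element, ATTGGNCCACG, was found in Herpud1 and Dnajb11, and in 0.0444% of all genes. Its last 5 bases alone, CCACG, which both longer forms contain, were found in 23 of 27 (85.2%) and in 35.5% of all genes. The sequences below show 7 of these elements that lie before the annotated transcript, since they belong to the chaperones, lectins, isomerases and degradation genes whose levels follow. Each is read 5′ to 3′ on the strand of its gene, with 25 bases on each side in lower case and the element in capitals.
Hsp90b1, chr10:86705613-86705681, minus strand: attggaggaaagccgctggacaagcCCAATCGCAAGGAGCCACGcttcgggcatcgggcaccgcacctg
Dnajc3, chr14:118937802-118937870, plus strand: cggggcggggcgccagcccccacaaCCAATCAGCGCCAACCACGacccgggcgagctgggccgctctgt
Calr, chr8:84847050-84847118, minus strand: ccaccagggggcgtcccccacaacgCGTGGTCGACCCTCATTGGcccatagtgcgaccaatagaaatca
Canx, chr11:50325775-50325843, minus strand: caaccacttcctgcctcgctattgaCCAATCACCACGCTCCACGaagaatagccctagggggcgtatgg
Pdia6, chr12:17266466-17266534, plus strand: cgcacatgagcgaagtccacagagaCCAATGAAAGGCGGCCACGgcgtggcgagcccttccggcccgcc
Creld2, chr15:88819495-88819563, plus strand: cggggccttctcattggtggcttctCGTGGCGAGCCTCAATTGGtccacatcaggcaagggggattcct
Herpud1, chr8:94386352-94386412, plus strand: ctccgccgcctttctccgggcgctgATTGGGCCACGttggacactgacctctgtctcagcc
The Calr and Creld2 elements run on the strand opposite to the gene, so their capitals read as the reverse complement, and Herpud1 carries the shorter form.

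Of the 10 genes with either longer form, 0 were called, and their median log2 fold change between genotypes was 0.14. The 17 genes with a promoter entry and neither form had a median of 0.05 and 0 calls. GalTKO replicate 1 was the highest library for 9 of the 10 and for 12 of the 17, and the median log2 ratio of that library to the other GalTKO libraries was 0.43 and 0.20. These sets also differ in role. All of the 10 but Herpud1 and Syvn1 are chaperones, lectins or disulfide-group genes, and the 17 hold most of the degradation genes. The parts of element and role were not separated or tested. Among 20 other tested genes with either form, 0 were called, the median log2 fold change was 0.03, GalTKO replicate 1 was the highest library for 3, and the median ratio was 0.06. A match describes letters in this window and is not a measured binding site.

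Levels between genes were compared as CPM per kilobase of exon, with the exons of all annotated transcripts of a gene merged. Ranks thus depend on the annotated length. In wildtype ovary Calr was the highest, at 404 CPM per kb, followed by Pdia4 at 300, P4hb at 268, Hsp90b1 at 262, Pdia3 at 262 and Hspa5 at 254. Neighbours from P4hb to Hspa5 differed by 1.03 times or less, within the spread of their libraries. Canx came next at 175 CPM per kb and stood 2.51 times above Pdia6, at 69.7. Sensors and part of the degradation machinery formed the low end, with Ern1 at 15.8, Atf6 at 11.5 and Derl2 at 6.01 CPM per kb. Derl2 has 8049 bases of merged exons. Without division by length, its wildtype mean of 48.4 CPM lay above Creld2 at 35.1 and Sdf2l1 at 27.35. By CPM per kb, the 9 most abundant genes were chaperones, lectins and disulfide isomerases in both genotypes.

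Among the sensors, Atf6, a membrane-bound factor that is cut free in the Golgi under stress, had 109, 105 and 106 CPM in wildtype and 117, 117 and 118 CPM in GalTKO. The 2 groups did not overlap, and the GalTKO libraries were almost equal. The difference was small, at a log2 fold change of 0.13 ± 0.07 (SE), and missed the test (adjusted p = 0.383, edgeR with Benjamini-Hochberg). Its relative Atf6b and the kinase and RNase Ern1 (IRE1) overlapped between genotypes, with log2 fold changes of 0.09 ± 0.11 and 0.07 ± 0.08.

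Xbp1, whose messenger RNA IRE1 cuts to yield the active factor, had 184, 162 and 152 CPM in wildtype and 196, 131 and 137 CPM in GalTKO. GalTKO replicate 1 was the highest of the 6 libraries and the other GalTKO libraries were the lowest. The log2 fold change was -0.10 ± 0.16 (SE) over all libraries and -0.31 ± 0.11 without GalTKO replicate 1 (adjusted p = 0.808 and 0.248, edgeR with Benjamini-Hochberg). Gene counts do not separate the cut from the uncut form.

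All 8 Hsp70 and Hsp90 chaperones and cofactors were highest in GalTKO replicate 1. Hspa5 (BiP), the Hsp70 of the ER that binds unfolded chains and holds the sensors inactive, had 1160.2, 1030.1 and 1027 CPM in wildtype and 1432, 934.5 and 1064 CPM in GalTKO. The groups overlapped, and the lowest library was also a GalTKO one. Its log2 fold change was 0.09 ± 0.16 (SE), and -0.10 ± 0.12 without GalTKO replicate 1.

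Hsp90b1 (GRP94), the Hsp90 of the ER, showed the widest margin of the 32 genes between GalTKO replicate 1 and the next library, at 1.62 times. It had 1038, 1072.5 and 1058 CPM in wildtype and 1859, 1131 and 1147 CPM in GalTKO. All GalTKO libraries lay above all wildtype ones, but replicates 2 and 3 did so only slightly. The log2 fold change of 0.39 ± 0.19 (SE, adjusted p = 0.36, edgeR with Benjamini-Hochberg) became 0.11 ± 0.11 without replicate 1. Its exons overlap a pseudogene on the other strand, 1810014B01Rik, over 10.3% of their length. That pseudogene held 660 counts in all libraries together, against 172018 for Hsp90b1.

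Hyou1, a large Hsp70 relative that exchanges nucleotide on BiP, had 421, 352 and 342 CPM in wildtype and 575, 414 and 354 CPM in GalTKO. Sdf2l1, which keeps BiP and its J-domain partners in cycle, had 30.9, 26.9 and 24.3 CPM and then 41.2, 27.1 and 24.3 CPM. Manf, a secreted factor that binds BiP, had 181, 165 and 154 CPM and then 246, 165 and 181 CPM. In each of these, GalTKO replicates 2 and 3 lay within or near the wildtype range while replicate 1 was above it, by 1.33 to 1.37 times the next library. Their log2 fold changes were 0.27 ± 0.18, 0.18 ± 0.20 and 0.24 ± 0.15 (SE), and none passed the test.

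The J-domain cofactors, which deliver clients to BiP, had unlike values, and the differences between them were not tested. Dnajb11 (ERdj3) had 83.6, 87.2 and 84.0 CPM in wildtype and 128.5, 87.9 and 101 CPM in GalTKO. The groups did not overlap, although GalTKO replicate 2 was within 1 CPM of the highest wildtype library. Dnajb11 gave a log2 fold change of 0.32 ± 0.13 (SE, adjusted p = 0.276, edgeR with Benjamini-Hochberg) and 0.15 ± 0.10 without GalTKO replicate 1. Dnajc3 (p58IPK), which also restrains PERK, had a log2 fold change of 0.19 ± 0.13 and Dnajb9 (ERdj4), which represses IRE1, one of -0.06 ± 0.10, both with overlapping groups.

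The lectin chaperones hold glycoproteins by their trimmed sugars. Calr (calreticulin, soluble) had 1127, 1098 and 1268 CPM in wildtype and 1352.5, 976 and 1061 CPM in GalTKO. Canx (calnexin, in the membrane) had 834, 794 and 832 CPM and then 883, 760.3 and 738 CPM. Both were highest in GalTKO replicate 1 and lowest in another GalTKO library, and neither differed between genotypes beyond its error, with log2 fold changes of -0.04 ± 0.14 and -0.05 ± 0.10 (SE).

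All 6 genes of the disulfide group were highest in GalTKO replicate 1, and 0 were called. The log2 fold change was positive for all 6 with that library, with a median of 0.25, and for 4 of 6 without it, with a median of 0.09. Creld2, a small stress-induced protein with isomerase activity, had the largest log2 fold change of the 32 genes. It had 38.8, 34.4 and 32.2 CPM in wildtype and 66.3, 41.4 and 44.8 CPM in GalTKO. The groups did not overlap, and GalTKO replicates 2 and 3 were nearer to the highest wildtype library than to replicate 1. Between genotypes the log2 fold change was 0.53 ± 0.18 (SE, adjusted p = 0.191, edgeR with Benjamini-Hochberg) and 0.29 ± 0.12 without replicate 1 (adjusted p = 0.297).

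Txndc5, an isomerase known for its role in collagen-rich tissue, had 300.1, 275 and 258 CPM in wildtype and 382, 339 and 293 CPM in GalTKO. The lowest GalTKO library lay under the highest wildtype library. Its log2 fold change was 0.28 ± 0.12 (SE, adjusted p = 0.259, edgeR with Benjamini-Hochberg). Pdia6, which limits IRE1 signalling, had a log2 fold change of 0.30 ± 0.15, and Pdia3, the partner of the lectins, one of 0.21 ± 0.13. Without GalTKO replicate 1 these were 0.12 ± 0.11 and 0.05 ± 0.11. P4hb, the founding isomerase and a subunit of prolyl hydroxylase, had 0.05 ± 0.11, and -0.02 ± 0.12 without that library.

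Pdia4 (ERp72) varied more within genotypes than any other of the 32 genes. It had 1054, 560.2 and 543 CPM in wildtype and 1393, 465.5 and 648 CPM in GalTKO. Replicate 1 was the highest in both genotypes, at 1.91 times the mean of the other wildtype libraries and 2.50 times that of the other GalTKO libraries. Between genotypes the log2 fold change was 0.22 ± 0.48 (SE), and -0.37 ± 0.33 without GalTKO replicate 1. Its neighbours on chromosome 6 were examined after these values were seen. Zfp786, 5.8 kb away, had 10.1, 5.03 and 5.59 CPM in wildtype and 10.3, 3.75 and 7.34 CPM in GalTKO. Zfp398, 22.2 kb away, had 128.5, 75.1 and 79.6 CPM and then 137, 51.9 and 83.6 CPM. Both thus had the high replicates of Pdia4. Ezh2 and Cul1 on one side and Zfp282 and Zfp212 on the other had ratios from 0.872 to 1.103. Rny1 and Rny3, 8.0 and 14.4 kb away, and Zfp783 and A930035D04Rik were less even, at 0.823 to 13.2 CPM. Their ratios were 1.21 to 1.40 in wildtype and 0.65 to 0.93 in GalTKO. No other of the 32 genes had a replicate 1 above every other library of its genotype by 1.5 times in both genotypes.

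**Figure D3:**
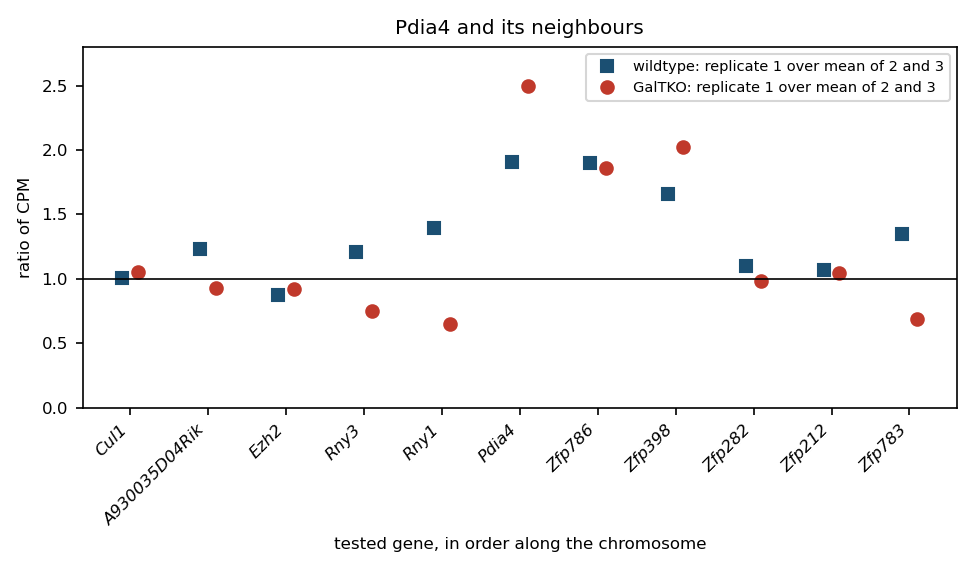
Tested genes around Pdia4 are in chromosomal order, and the vertical axis is the ratio of replicate 1 to the mean of replicates 2 and 3 of the same genotype (1 is no difference; squares wildtype, circles GalTKO). Pdia4, Zfp786 and Zfp398 stand between 1.66 and 2.50 in both genotypes, and no other gene shown is above 1.40.

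Of the 9 genes of ER-associated degradation, 0 were called and 0 had an unadjusted p under 0.05 (edgeR). The log2 fold change was negative for 7, with a median of -0.09, and all 9 intervals included 0. GalTKO replicate 1 was the highest library for 3. Herpud1, a membrane protein that recruits the degradation complex, had 87.3, 69.0 and 67.0 CPM in wildtype and 75.1, 57.8 and 69.3 CPM in GalTKO. Its highest library was a wildtype one and the groups overlapped. Herpud1 had a log2 fold change of -0.14 ± 0.13 (SE). The ubiquitin ligase Syvn1 (HRD1) and its partner Sel1l had values of -0.10 ± 0.10 and 0.04 ± 0.10, and the channel proteins Derl1 and Derl2 had -0.04 ± 0.09 and -0.09 ± 0.08. Derl2 had 49.1, 46.7 and 49.4 CPM in wildtype and 44.8, 44.9 and 46.4 CPM in GalTKO, without overlap but with a gap under 1 CPM. It shares 231 exon bases, 2.9% of its exon length, with Mis12 on the other strand. Mis12 held 5439 counts in all libraries together, against 6560 for Derl2.

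The mannose-trimming and mannose-reading factors differed in sign among themselves, although 0 were called. Edem2, which starts mannose removal on misfolded glycoproteins, had 62.8, 58.2 and 58.6 CPM in wildtype and 55.3, 69.2 and 78.1 CPM in GalTKO. GalTKO replicate 1 was the lowest of the 6 libraries, and replicates 2 and 3 were the highest. Edem2 gave a log2 fold change of 0.17 ± 0.13 (SE), and 0.30 ± 0.10 without replicate 1 (adjusted p = 0.216, edgeR with Benjamini-Hochberg). Edem3 had 259, 251 and 283 CPM in wildtype and 207, 291 and 229 CPM in GalTKO. Os9, a lectin that reads the trimmed sugar, had 157, 169 and 159 CPM and then 140.0, 197 and 145 CPM. In Edem3 and Os9, too, GalTKO replicate 1 was the lowest and GalTKO replicate 2 the highest library. Edem1 had a log2 fold change of -0.13 ± 0.08.

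Of the translocon, Sec61b, the small subunit of the channel, had 46.9, 46.5 and 44.0 CPM in wildtype and 63.7, 50.2 and 56.6 CPM in GalTKO. The groups did not overlap. Sec61b gave a log2 fold change of 0.31 ± 0.10 (SE), and 0.22 ± 0.10 without GalTKO replicate 1. Sec61a1, the pore subunit, had 365, 329.9 and 365 CPM and then 439, 337 and 309.8 CPM, with overlapping groups and a log2 fold change of 0.03 ± 0.14. Ssr1, a subunit of the translocon-associated TRAP complex, had one of -0.02 ± 0.09. The channel subunits, which act as 1 complex, therefore had unlike values in these libraries, and the difference between them was not tested.

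Other genes of the pathway were read from 6 lists of 147 genes, 145 of them tested, with Erp27 and Ern2 under the count filter. Of these, 1 was called higher and 0 lower, beside 2.55% of all genes. Fkbp11, a proline isomerase of the ER membrane, rose. It had 3.60, 3.55 and 3.68 CPM in wildtype and 11.6, 6.64 and 7.55 CPM in GalTKO, so the wildtype libraries were nearly equal and all GalTKO libraries were higher. On the log2 scale GalTKO exceeded wildtype by 1.25 ± 0.23 (SE, 3 libraries each, adjusted p = 0.0331, edgeR with Benjamini-Hochberg). The call was lost without GalTKO replicate 1 (log2 fold change 0.97, adjusted p = 0.0611), without GalTKO replicate 3 (1.34, adjusted p = 0.0563) and without wildtype replicate 1, 2 or 3 (1.25, 1.24 and 1.27, adjusted p = 0.125, 0.136 and 0.116). Only the first of these lowered the fold change by more than its standard error.

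The 30 tested genes among further folding enzymes had a median log2 fold change of 0.10, with 24 positive. Over all genes tested, 9061 of 16957 were positive, with a median of 0.02. The folding enzymes with the smallest p beside Fkbp11 were Pdia5 at 0.28 ± 0.09, Txndc12 at 0.26 ± 0.09 and the cyclophilin Ppib at 0.30 ± 0.09 (SE), none of them called. The 31 further genes of translocation, signal cleavage and glycan transfer had a median of 0.11 with 23 positive. Spcs3, a signal peptidase subunit, came nearest to a call at 0.38 ± 0.09 (adjusted p = 0.0644, edgeR with Benjamini-Hochberg). Its partner Sec11a had 0.26 ± 0.10, the channel subunit Sec61g had 0.31 ± 0.13 and Sec62, which guides late insertion, had -0.36 ± 0.12.

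The 25 further degradation genes had a median of -0.03 with 0 calls. Derl3, a derlin that is induced by stress, had 39.4, 35.1 and 24.0 CPM in wildtype and 52.3, 50.1 and 52.6 CPM in GalTKO. The groups did not overlap, and GalTKO replicate 1 did not stand apart. Derl3 thus had a log2 fold change of 0.65 ± 0.17 (SE, adjusted p = 0.0994, edgeR with Benjamini-Hochberg). The membrane ligase March6 and the signal peptide peptidase H13 had -0.29 ± 0.09 and -0.34 ± 0.10 (SE).

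The PERK list of 14 genes had 0 calls and a median of -0.07. Sesn2 and Nupr1, stress-induced regulators of metabolism and transcription, had 0.47 ± 0.18 and 0.80 ± 0.50, while the transcription factor Atf3 and the eIF2 phosphatase subunit Ppp1r15b had -0.74 ± 0.30 and -0.15 ± 0.09 (SE). The 19 tested genes that activate or restrain ATF6 and IRE1 had 0 calls and a median of 0.00. Nfyc, a subunit of NF-Y, had 0.22 ± 0.09, and the membrane proteins Tmbim6 and Wfs1, which restrain stress signalling, had -0.17 ± 0.10 and -0.34 ± 0.13. Bfar, a membrane-bound ubiquitin ligase, had 45.3, 46.2 and 46.4 CPM in wildtype and 15.7, 33.9 and 37.3 CPM in GalTKO. Here GalTKO replicate 1 was the lowest library, and the difference of -0.67 ± 0.30 missed the test.

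The 26 genes of ER to Golgi transport had 0 calls and a median of 0.01. Kdelr3, a receptor that returns chaperones to the ER, had 0.38 ± 0.13, the cargo receptor Lman1 had 0.21 ± 0.10, the vesicle fusion protein Bet1 had 0.18 ± 0.11 and the coat subunit Sec24a had -0.18 ± 0.10 (SE). GalTKO replicate 1 was the highest library for 16 of the 26 genes (61.5%). It was so for 16 of the 31 genes of the translocation list (51.6%), 6 of 14 of the PERK list (42.9%), 8 of 30 folding enzymes (26.7%), 5 of 19 of the ATF6 and IRE1 list (26.3%) and 5 of 25 degradation genes. The median log2 ratio of that library to the other GalTKO libraries was 0.22 for transport and 0.15 for the PERK list, and lay between -0.01 and 0.12 for the other 4.

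**Figure D4:**
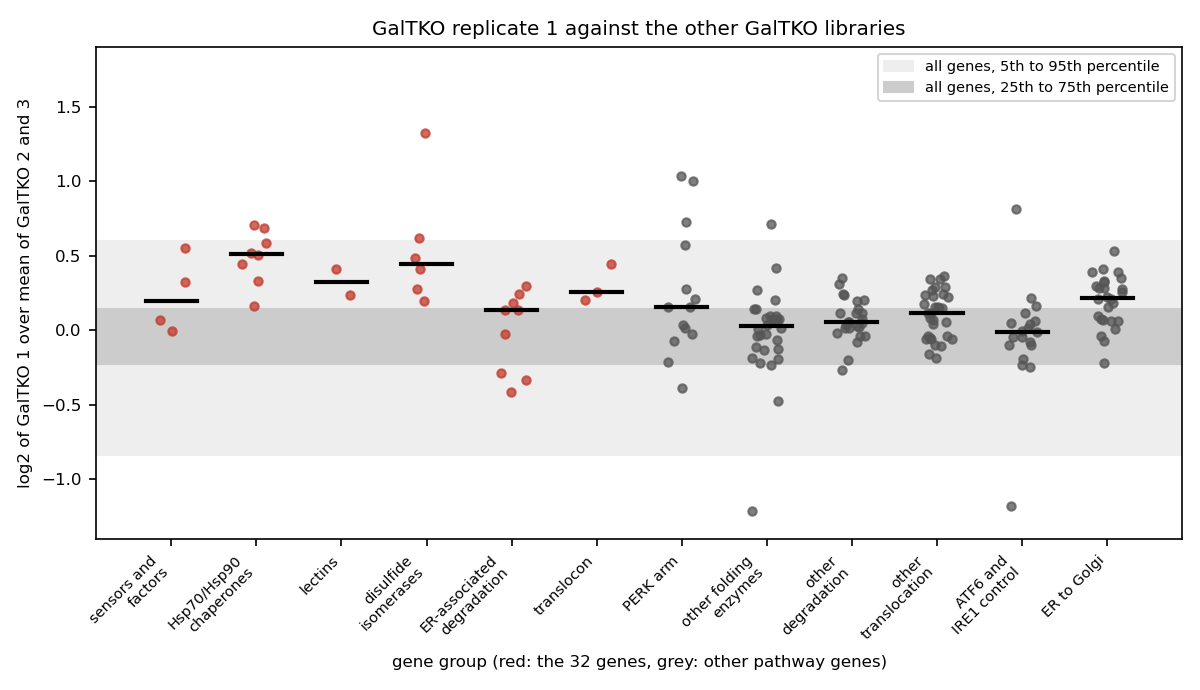
The vertical axis is the log2 ratio of GalTKO replicate 1 to the mean of GalTKO replicates 2 and 3, each point is a gene, black bars are medians of the 6 role groups (red) and 6 other pathway lists (grey), and shaded bands give the 25th to 75th and 5th to 95th percentiles of all genes tested. The chaperone median of 0.51 and the isomerase median of 0.45 lie above the upper quartile of all genes, 0.14, while the degradation median of 0.13 does not.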

How the data were processed

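Ovary RNA was depleted of ribosomal RNA and made into stranded libraries, per the labels' protocols. The authors deposited raw read counts per gene for 6 libraries; their processing used cutadapt 1.16, STAR 2.7.6a, featureCounts 1.6.3 and GRCm38, per the submitters' processing notes. Whether counting used strand was not stated in those notes, so reads in exons shared with a gene on the other strand could be counted for either. Of 55487 identifiers, 55227 matched GENCODE M21. Counts were tested with edgeR 4.0.16 (TMM scaling, filterByExpr with a minimum of 10 counts, robust quasi-likelihood fit on genotype), with Benjamini-Hochberg adjustment over 16957 genes and a threshold of 0.05. Standard errors were derived from the fold change and its F statistic. Alternatives used DESeq2 1.42.0, limma 3.58.1 (voom), other scalings and filters, the replicate number as a block, and each library left out. The fitting script was tested on simulated data. Every pair of libraries differed beyond sampling noise (chi-square per degree of freedom at least 13.1). All 32 genes were named; in each pathway list, the 4 with the smallest p, of which 1 is not reported here. The members and lists were chosen with earlier results of these data known.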

Additional observations from a re-analysis of the deposited data

How the results depend on the processing

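The count of called genes among the 32 was 0 under all 14 alternatives, including an adjusted p under 0.1. That looser cutoff was applied to the main edgeR fit only. Other fits gave adjusted p values under 0.1, at 0.0879 for Creld2 (DESeq2 Wald test) and 0.0921 for Sec61b (limma voom). Without GalTKO replicate 2, edgeR gave 0.056 for Sec61b, 0.0716 for Dnajb11 and 0.074 for Creld2. That fit called 4.26% of all genes. With any other library left out, the smallest adjusted p of the 32 genes ran from 0.146 to 0.409 (edgeR). The median log2 fold change of the 32 genes, 0.08, ran from 0.07 to 0.10 over the other scalings, limma voom and the replicate block. It ran from -0.02 (without GalTKO replicate 1) to 0.13 with 1 library left out. Calls in the pathway lists, 1 in the main test, became 3 with DESeq2, 2 with limma voom, 3 without the filter on low counts, 2 with upper-quartile scaling and 3 at an adjusted p under 0.1. They ranged from 0 to 1 with 1 library left out. The replicate block gave 0 calls in those lists, as Fkbp11 had an adjusted p of 0.0599 (edgeR). Deviations of same-numbered libraries correlated at 0.13, -0.04 and 0.11, and those of differently numbered libraries at -0.16 to 0.04. With 3 libraries per genotype, such values cannot decide whether the numbers pair the samples. The main test used no pairing. The cause of the shifts in calls was not tested.

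Of 448 values of single genes under an alternative, 424 kept their sign and 24, in 14 genes, did not. The 424 include the values at the looser cutoff of 0.1, which repeat the main fit and could not change sign. Upper-quartile scaling gave 0.011 for Os9 and 0.004 for Ssr1, and limma voom gave 0.031 for Calr and 0.017 for Ssr1. With 1 library left out, log2 fold changes ran from -0.032 to 0.17 for Atf6b, -0.31 to 0.008 for Xbp1, -0.10 to 0.22 for Hspa5, -0.11 to 0.039 for Dnajb9, -0.092 to 0.32 for Sdf2l1, -0.19 to 0.052 for Calr and -0.13 to 0.002 for Canx. They ran from -0.37 to 0.60 for Pdia4, -0.015 to 0.13 for P4hb, -0.004 to 0.12 for Sel1l, -0.10 to 0.025 for Derl1, -0.18 to 0.078 for Os9, -0.13 to 0.13 for Sec61a1 and -0.089 to 0.016 for Ssr1. With 3 libraries per genotype, the median standard error of 0.13 (log2) limits what could be called.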

Other observations

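Replicate 1 was the highest library of its genotype in both wildtype and GalTKO for 20 of the 32 genes, and for 11.4% of all genes tested. A margin of at least 1.5 times over the other libraries in both genotypes, with a mean of at least 1 CPM, was found for 9 genes: Dkkl1, Fam110a, Gm11843, Myom2, Pdia4, Tnc, Tuba8, Wnt7b and Zfp398. Pdia4 and Zfp398 lie 22.2 kb apart on chromosome 6, and Tuba8 is also on chromosome 6. These genes were chosen after their values were seen, and no test was made.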
